A study of Macaca mulatta with 22 samples.

Results

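N6-methyladenosine (m6A) is placed on mRNA by writers and acts through readers, and the transcripts of these proteins can carry the mark themselves. Peaks in 8 such genes were examined: the writers ZC3H13, RBM15 and METTL16, the nuclear reader YTHDC1, and the readers YTHDF2, YTHDF3, PRRC2A and FMR1. The 8 genes were chosen by the peaks themselves, as m6A writer and reader genes with at least 1 peak in some animal, so the presence of peaks in them is a description and not a finding. They were found by the Ensembl macaque identifier in the caller's gene column, and all 8 matched. They held 29 of the 10069 peaks and made up 8 of the 3671 genes with a peak.

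The study mapped m6A in the prefrontal cortex of rhesus macaques (Macaca mulatta) at postnatal day 35. An antibody against m6A pulled down fragmented RNA, and enriched stretches were called as peaks, with 1 list per animal. Controls were 6 animals with no sevoflurane label (A and B were male; C, C1, C2 and C3 were female). The treated group was 5 animals (D and S1 were male; F, S2 and S3 were female) that had breathed roughly 2.5 to 3% sevoflurane, an inhaled general anaesthetic, on 3 occasions of 4 h, near postnatal days 7, 21 and 35. The labels do not say how control animals were handled in place of the anaesthetic. The tissue is a mixture of cell types, each library is from 1 animal, and RNA levels were not analysed here. The labels do not say whether the input library of each animal was the background of its peaks, so what the authors' fold enrichment is a ratio to is not known. A gained or lost peak, a changed RNA level and a changed mixture of cells therefore cannot be told apart.

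The list lengths differed between the groups, with 452 to 1210 peaks in control lists and 852 to 1673 in sevoflurane lists. Only the control list of C3 was longer than the shortest sevoflurane list, that of S1. Depth is unknown, since the lists hold no read counts, so how precise a share is depends on how many animals were sampled. Of the cell type markers examined, 2 of 6 neuronal, 1 of 4 astrocyte, 1 of 4 oligodendrocyte, 1 of 3 microglial and 0 of 3 endothelial and 1 of 2 blood genes had a peak in any animal. The neuronal nuclear protein gene RBFOX3 was the most frequent, in 4 controls and 3 sevoflurane animals. Of these, the oligodendrocyte gene MAG and the blood gene HBB had no identifier in the name table and could not be searched, which leaves 1 of 3 and 1 of 1. A marker without a peak may still be expressed, so the peak lists do not test the tissue label.

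m6A on mRNA is laid down co-transcriptionally in the nucleus by a complex built around METTL3 and METTL14. ZC3H13 is a scaffold that holds the regulatory part of that complex in the nucleus, and RBM15 is an RNA-binding subunit that guides it to its targets. METTL16 is a separate methyltransferase, known for the U6 small nuclear RNA and for hairpins in the transcript of the S-adenosylmethionine synthetase MAT2A. YTHDC1 reads m6A in the nucleus and affects splicing and export. YTHDF2 and YTHDF3 read it in the cytoplasm, where YTHDF2 recruits the machinery of mRNA decay. PRRC2A and FMR1 are RNA-binding proteins reported to bind methylated transcripts. FMR1 encodes FMRP, a repressor of translation in neurons whose loss causes fragile X syndrome.

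Each member had at most 1 peak in any animal, as did 1171 (72.4%) of the 1618 genes with a peak in 2 or more animals. The members ranged from nearly universal to seen a single time. ZC3H13 had a peak in 10 animals, PRRC2A in 7, FMR1 and YTHDC1 in 3 each, RBM15 and METTL16 in 2 each, and YTHDF2 and YTHDF3 in 1 each. Neighbours in this order with the same or nearly the same number of animals are not separated by these data. Control animals had a peak in 2.67 ± 0.816 of the 8 genes (SD, n = 6) and sevoflurane animals in 2.60 ± 1.14 (SD, n = 5). By animal, the numbers were 2 in A, 3 in B, 2 in C, 2 in C1, 4 in C2 and 3 in C3 among controls. They were 4 in D, 2 in F, 1 in S1, 3 in S2 and 3 in S3 after sevoflurane. The groups overlapped over most of their range. As a share of the genes with a peak in the same list, the members made up 0.467 ± 0.133% (SD) in the 6 controls and 0.245 ± 0.100% (SD) in the 5 sevoflurane animals, a difference of -0.222 percentage points, or -0.0801 with lists cut to equal length. This share was not tested, and the sevoflurane lists were longer. The lowest animal in number, S1, had YTHDC1 alone.

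**Figure D1:**
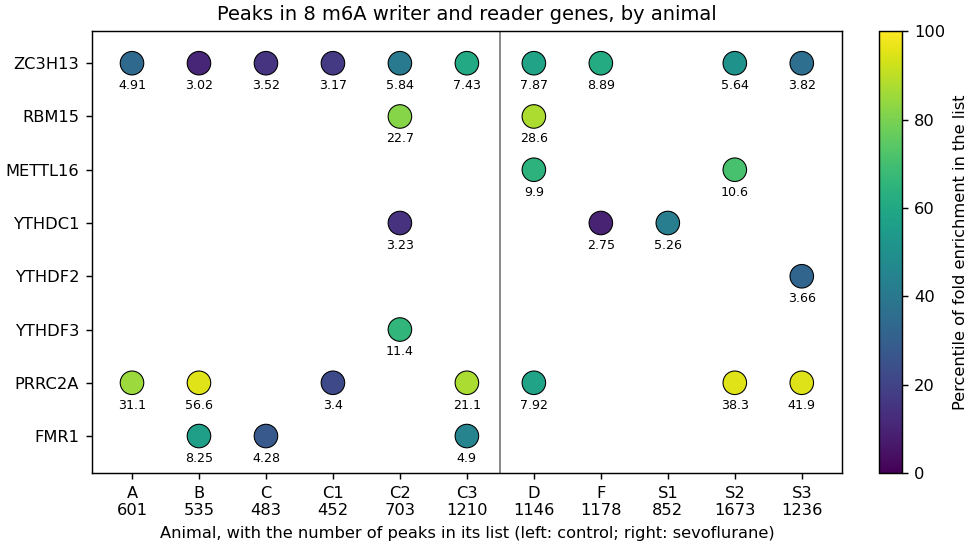
Peaks in the 8 genes (rows) in each of the 11 animals (columns, with the number of peaks in each list below the name). A circle is a peak, its colour the percentile of its fold enrichment within that animal's list and the number under it the authors' fold enrichment; ZC3H13 fills 10 of 11 columns and FMR1 lies only among controls B, C and C3.

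The comparison of treatments asked whether a gene had a peak more often in sevoflurane animals, with Fisher's exact test over all 1486 genes with a peak in 2 to 9 animals. At an unadjusted p under 0.05 it called 27 of these genes, 1.82%, all more often in sevoflurane animals, and 0 at an adjusted p under 0.05. That count was 4 with lists of equal length, 10 with peak p-values of at most 1e-05, 0 in males alone and 85 without S1. The sevoflurane lists were longer, and groups of unequal size make the directions unequally easy to call. What these add to the shared direction of the calls was not tested beyond the lists of equal length. Using fewer animals changes which splits of the animals can reach p under 0.05, and in males alone none can. Of the 8 members, 5 were within that range of animals, and 0 of the 5 were called. ZC3H13, in 10 animals, and YTHDF2 and YTHDF3, in 1 animal each, lay outside it. The median difference in the share of animals, sevoflurane minus control, was 3.33 percentage points over the 5 members tested and 23.3 over all genes tested. The member values ran from -50 for FMR1 to 40 for METTL16, and their median is that of RBM15, with 1 animal in each group. The members were chosen by their peaks, and the medians were not tested against each other. A gene in 2 or 3 animals cannot reach p under 0.05 in this design, so a p above it does not show that the groups were alike.

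ZC3H13 had the most frequent peak of the 3 writers. Its region spanned 25153025 to 25153907 on the minus strand of chromosome 17 (rheMac8), in the exon class, at 79.3 to 79.5% of the gene's span counted from its 5' end. It was present in 6 of 6 controls and in 4 of 5 sevoflurane animals, S1 being the animal without it. All 10 peaks shared a stretch of 150 bp, from 25153264 to 25153413, which was the whole peak of control B. The other peaks reached further on 1 or both sides, and that of S2 also took in a short block across an intron, on the 5' side. The exon was number 8 of 19 in the authors' annotation, which numbers minus-strand exons from the low coordinate (the number rose with the coordinate in 368 of 376 minus-strand transcripts with at least 2 exons holding peaks). Counted from the 5' end it was therefore exon 12.

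**Figure D2:**
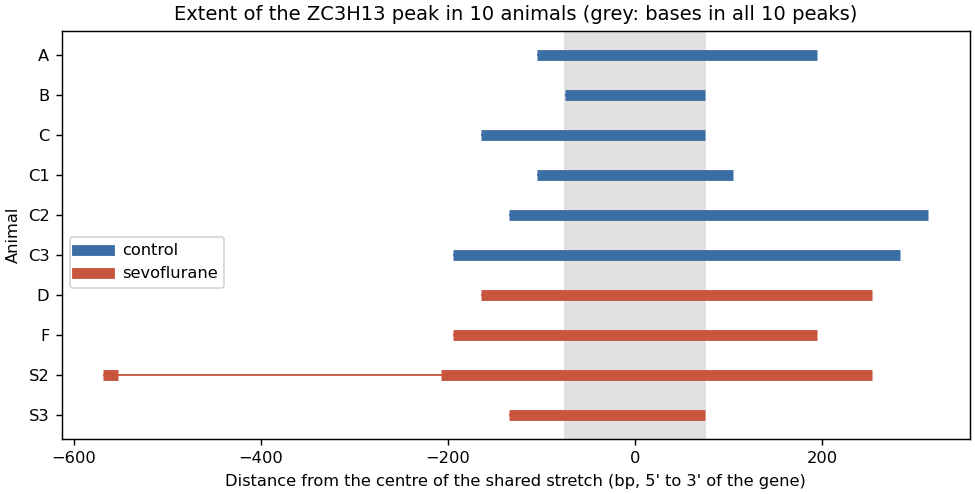
Extent of the ZC3H13 peak in each of the 10 animals that had it, as distance in bp from the centre of the shared stretch, 5' to 3' along the gene. Thick bars are exonic blocks, the thin line an intron inside the peak of S2, and the grey band the 150 bp present in all 10 peaks.

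By p-value the ZC3H13 peak was among the stronger of each list, and by fold enrichment among the middling to low ones. The authors' fold enrichment in controls ran from 3.02 in B through a median of 4.21 to 7.43 in C3. In the 4 sevoflurane animals it was 7.87 in D, 8.89 in F, 5.64 in S2 and 3.82 in S3. The sevoflurane median was 6.75, and both groups held values under 4 and above 7. Within their own lists these peaks stood at the 10.7th to 61.2nd percentile of enrichment, and at the 74.4th to 97.9th percentile when peaks were ranked from the highest to the lowest p-value. The median percentile of enrichment was 25.4 in controls and 54.3 after sevoflurane, a difference that was not tested. The p-values ran from 1e-11 in B to 7.9e-58 in D.

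The exonic length that the ZC3H13 peak covered did not pass the test for a difference between the groups. In controls it was 300 bp in A, 150 in B, 240 in C, 210 in C1, 449 in C2 and 479 in C3. After sevoflurane it was 419 bp in D, 390 in F, 479 in S2 and 210 in S3. The means were 305 ± 133 bp (SD, n = 6) and 374 ± 116 bp (SD, n = 4), a difference of 69.8 bp (exact permutation test, two-sided, 210 splits, p = 0.424; adjusted over 4 comparisons, p = 1). Those comparisons were the covered length and the number of peaks of ZC3H13 and PRRC2A. The number of peaks was 1 in every animal with a peak, so its comparisons could show no difference, and counting them raised the adjusted p of the lengths. The 3 longest peaks came from C3, S2 and C2, and the shortest, B, C1 and S3, also came from both groups.

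Longer lists tended to hold longer ZC3H13 peaks, although the relation rests on few animals. Across the 10 animals, covered length and the number of peaks in the list had a Pearson r of 0.642 (permutation p = 0.0460, adjusted p = 0.0920 over the 2 genes examined) and a Spearman rho of 0.591 (permutation p = 0.0760). Without S2 and C1, the 2 lists farthest from the median length, r was 0.468 (exact permutation p = 0.240), so p did not stay under 0.05. Leaving out the extreme lists also narrows the range of list lengths, and no other pair was left out for comparison. Among the 6 controls alone r was 0.815 (exact permutation p = 0.0194) and rho 0.829 (exact permutation p = 0.0583). The 4 sevoflurane animals were too few for a value of their own. For PRRC2A, over 7 animals, r was 0.576 (exact permutation p = 0.179) and rho 0.0180 (exact permutation p = 0.986). Without C1 and B, its 2 lists farthest from the median length, 5 animals remained, with r of 0.865 (exact permutation p = 0.100) and rho of 0.667 (exact permutation p = 0.267).

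**Figure D3:**
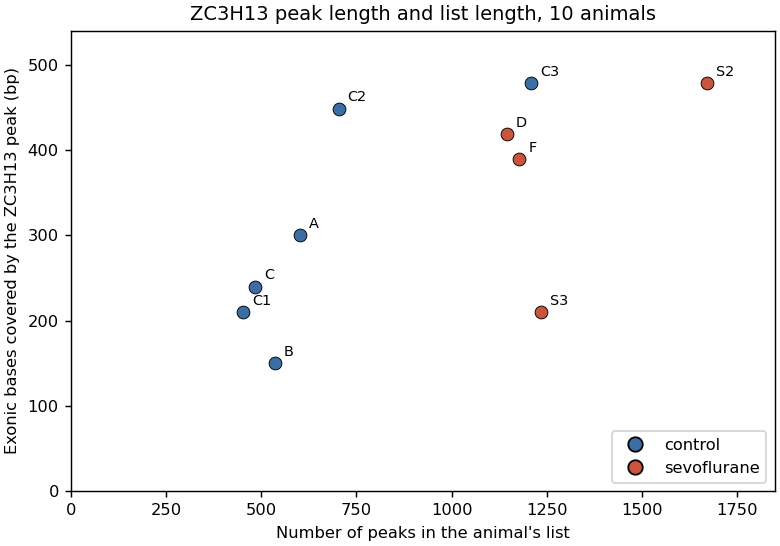
Exonic bases covered by the ZC3H13 peak (vertical axis, bp) against the number of peaks in the same animal's list (horizontal axis), 1 point per animal, coloured by group. Among controls the 2 longest lists, C3 and C2, have the 2 longest peaks, 479 and 449 bp, while S3 has a list of 1236 peaks and a peak of 210 bp.

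The ZC3H13 peak was not the only one missing in S1 alone. Of the 51 genes with a peak in exactly 10 animals, 13 lacked it in S1, more than in any other animal. The S1 list, at 852 peaks, was longer than those of 5 controls and the shortest of the sevoflurane lists. Why these peaks were missing in S1 was not tested. C and C1, with lists of 483 and 452 peaks, were each the missing animal for 9 of these genes, and D, F, S2 and S3 for none. With a symbol, 11 other genes had exactly the same 10 animals as ZC3H13 (Jaccard index over the 11 animals of 1, the highest it can be). The nearest of them in median enrichment percentile were TCEAL5, a transcription elongation factor A-like gene, SAFB, a nuclear matrix RNA-binding protein, and GPM6B, a neural membrane glycoprotein. They stood at median percentiles of 37.3, 32.0 and 45.8, against 38.3 for ZC3H13.

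RBM15, the targeting subunit, had a peak in 1 control, C2, and 1 sevoflurane animal, D. The region ran on chromosome 1 from 111364322 to 111364501 (plus strand), in exon 1 of 2, and the 90 bp peak of C2 lay wholly inside the 180 bp peak of D. Fold enrichment was high in both, 22.7 in C2 and 28.6 in D, at the 81.7th and 87.7th percentile of their lists. Their p-values, 9.5e-06 and 1.6e-06, ranked only at the 36.8th and 47.3rd percentile. The difference between groups did not pass Fisher's exact test (p = 1, adjusted p = 1 over all genes).

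METTL16 had a peak in 2 sevoflurane animals, D and S2, and in 0 of 6 controls. Shares of animals were 40% (95% exact Clopper-Pearson interval 5.27 to 85.3%) and 0% (0 to 45.9%), with Fisher's exact p = 0.182 and adjusted p = 0.606 over all genes. Such a pattern was common: 352 of the 1486 tested genes, 23.7%, had a peak in at least 2 sevoflurane animals and no control. D and S2 also had lists of 1146 and 1673 peaks, and what list length contributes to this pattern was not tested beyond the shortened lists described below. The peaks were close to the 3' end of METTL16, between 2355643 and 2355852 on the minus strand of chromosome 16, 120 bp from the annotated end in D and 180 bp in S2. The peaks of 120 and 150 bp overlapped by 60 bp. Fold enrichment was 9.90 in D and 10.6 in S2, with p-values of 9.1e-05 and 1.7e-05, and the peak of D was the weakest of all 29 by p-value.

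YTHDC1, which reads m6A in the nucleus, had a peak in control C2 and in sevoflurane animals F and S1 (Fisher's exact p = 0.545, adjusted p = 0.901 over all genes). The difference of 23.3 percentage points was 3.33 with peaks of at least 3-fold enrichment, which drops F, and 40 with peak p-values of at most 1e-05, which drops C2. It was 8.33 without F or without S1. The region lay in exon 4 of 17 on chromosome 5 from 65996837 to 65997107 (plus strand), at 37.8 to 38.2% of the gene. The 3 peaks stepped along the exon: those of F and S1 shared 91 bp, those of S1 and C2 shared 31 bp, and those of F and C2 met in 1 bp. Fold enrichment was 3.23 in C2, 2.75 in F and 5.26 in S1, with the 2 lower values at percentiles 14.2 and 9.72. The peak of S1, the animal without ZC3H13, had the highest enrichment and the lowest p-value, 1.1e-09. No gene with a symbol had the same 3 animals, and 5 genes came nearest with a Jaccard index of 0.750. The 3 of these closest in enrichment percentile were NCOR1, a nuclear receptor corepressor, CDC42SE2 and PTPRN, in 4 animals each.

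The cytoplasmic readers YTHDF2 and YTHDF3, close relatives, each had a peak in a single animal, and not the same one. YTHDF2 had it in sevoflurane animal S3, on chromosome 1 from 27697222 to 27697371 (plus strand). YTHDF3 had it in control C2, on chromosome 8 from 61179065 to 61179154 (plus strand). Both peaks lay in exon 4 of 5 of their gene, at 19.6% and 38.0% of its span. YTHDF2 reached a fold enrichment of 3.66 (p-value of the peak 8.1e-06) and YTHDF3 11.4 (6.8e-05). Both lay outside the range of 2 to 9 animals tested. With no limit on the number of animals, Fisher's exact p was 0.455 for YTHDF2, 1 for YTHDF3 and 0.455 for ZC3H13.

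Of the readers among the 8 genes, PRRC2A had the most frequent peak, in controls A, B, C1 and C3 and in sevoflurane animals D, S2 and S3 (66.7% against 60% of animals; Fisher's exact p = 1, adjusted p = 1 over all genes). All 7 peaks were in exon 16 of 31, on chromosome 4 from 32497516 to 32497845 (plus strand), at 65.2 to 66.5% of the gene. No base was in all 7: the most shared stretch, 31 bp from 32497695 to 32497725, was in 6, and the peak of A ended upstream of it. That of A overlapped S2 by 91 bp, C3 by 31 bp and B by 1 bp, and did not reach those of C1, D and S3.

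PRRC2A held the highest enrichment of the 29 peaks and the widest range between lists. The order is not that within every list: in D, the one list with both, RBM15 stood higher, at 28.6. It was 31.1 in A, 56.6 in B, 3.40 in C1 and 21.1 in C3 among controls, and 7.92 in D, 38.3 in S2 and 41.9 in S3 after sevoflurane. In B, S2 and S3 the peak stood at percentiles 95.2, 95 and 94.9 of the list, in A and C3 at 84.9 and 87.3, in D at 58.0 and in C1 at 22.2. Low and high values occurred in both groups. Covered length was 143 ± 37.4 bp in controls (SD, n = 4) and 190 ± 96.4 bp after sevoflurane (SD, n = 3), a difference of 47.0 bp (exact permutation test, two-sided, 35 splits, p = 0.514, adjusted p = 1). Without S2, whose peak of 300 bp was the longest, the difference was -8.00 bp.

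One gene with a symbol, IPO13, a nuclear transport receptor, had exactly the same 7 animals as PRRC2A. Next came ARRB1, which encodes beta-arrestin 1, with a Jaccard index of 0.875 and 8 animals, and HDAC11, a histone deacetylase, with 0.857 and 6 animals.

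FMR1 had a peak in 3 controls, B, C and C3, and in 0 of 5 sevoflurane animals. Shares of animals were 50% (95% exact Clopper-Pearson interval 11.8 to 88.2%) and 0% (0 to 52.2%), with Fisher's exact p = 0.182 and adjusted p = 0.606 over all genes. Among the 1486 tested genes, 11, or 0.740%, had a peak in at least 3 controls and no sevoflurane animal. Of the 305 genes in exactly 3 animals, 10 had this split, and in 2 of those 10 all peaks lay in the same region. Over all 305 genes a single region was found for 121, 39.7%. The animals are mixed in sex and list length: B is male, C and C3 are female, and the lists of B, C and C3 held 535, 483 and 1210 peaks. The lists of B and C were shorter than every sevoflurane list, and that of C3 was longer than 3 of the 5.

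The FMR1 region was the only one of the 8 that crossed exon junctions in every animal. It ran on chromosome X from 141645453 to 141648476 (plus strand), at 82.7 to 85.8% of the gene, and was annotated to exon 14 of 17 in B and exon 15 in C and C3. The 3 peaks covered 240, 151 and 211 exonic bp in B, C and C3, and all of the 151 bp of C were in both others. Fold enrichment was 8.25 in B, 4.28 in C and 4.90 in C3, at percentiles 56.2, 27.6 and 45.3 of the lists, and p-values were 8.5e-10, 3.4e-06 and 5.8e-08. B was the highest by both measures. PTPRZ1, a receptor phosphatase of glia, was the one gene with a symbol and the same 3 animals. COG6, a Golgi trafficking subunit, followed with a Jaccard index of 0.750 and EHBP1, an endocytic adaptor, with 0.667.

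**Figure D4:**
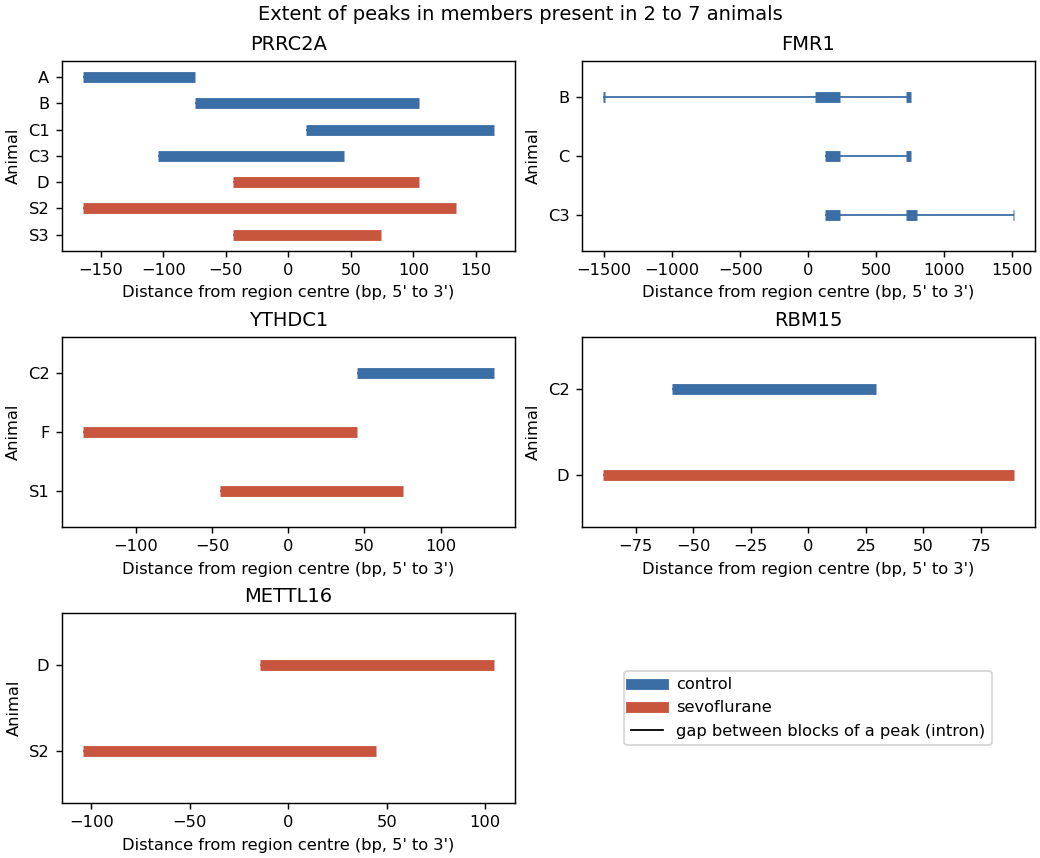
Extent of the peaks of PRRC2A, FMR1, YTHDC1, RBM15 and METTL16, 1 row per animal with a peak, as distance in bp from the centre of the gene's region, 5' to 3'. Thick bars are exonic blocks and thin lines the introns between them, blue for control and red for sevoflurane; the PRRC2A peak of A does not reach those of C1, D and S3, and FMR1 has control animals only.

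The members' peaks joined into 1 region per gene under the looser of the overlap rules used. Peaks can join in steps under it, and no base was shared by all 7 PRRC2A peaks. In each of the 6 members with a peak in 2 or more animals, all peaks fell in a single region, where regions join peaks on 1 strand whose exonic blocks share 1 bp or more. Over all 1618 genes with a peak in 2 or more animals, 641 had a single region, 39.6%. These genes include some with more than 1 peak in an animal, which no member had, so the shares are not matched. With an overlap of at least 50% of both peaks the count was 3 of 6 members, ZC3H13, RBM15 and FMR1, against 488 of 1618 genes, 30.2%. By region, treatment was tested for 1265 regions in 2 to 9 animals, of which 19, 1.50%, had Fisher's exact p below 0.05 before adjustment. Of the 5 member regions tested, 0 did. Their Fisher's exact p-values were those of the genes, with adjusted p = 0.610 for METTL16 and FMR1 and 0.906 for YTHDC1.

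All 29 member peaks were in the authors' exon class, against 68.6% of all peaks, and 25 of the 29, 86.2%, were a single block, against 64.1%. Their median covered length was 180 bp, against 150 bp over all peaks. These shares are counts of peaks, of which 10 are the ZC3H13 peak and 7 the PRRC2A peak, so they were not tested.

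Enrichment and p-value ranked the members differently. ZC3H13 stood high by p-value and middling by enrichment in its lists, RBM15 and METTL16 the reverse, and PRRC2A high by both in B, S2 and S3. The weakest of the 29 peaks still had a p-value of 9.1e-05, and the largest false discovery rate was 0.00851. With peaks restricted to a p-value of at most 1e-05, METTL16, YTHDF3 and the YTHDC1 peak of C2 were lost. ZC3H13 stayed at 6 controls and 4 sevoflurane animals, PRRC2A at 4 and 3, and FMR1 at 3 and 0. When each list was cut to its 452 lowest p-values, METTL16, YTHDF2 and YTHDF3 had no peak, RBM15 had 1 in C2 alone, YTHDC1 was in 0 controls and 2 sevoflurane animals, and PRRC2A in 3 and 3. ZC3H13 and FMR1 kept every animal.

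**Figure D5:**
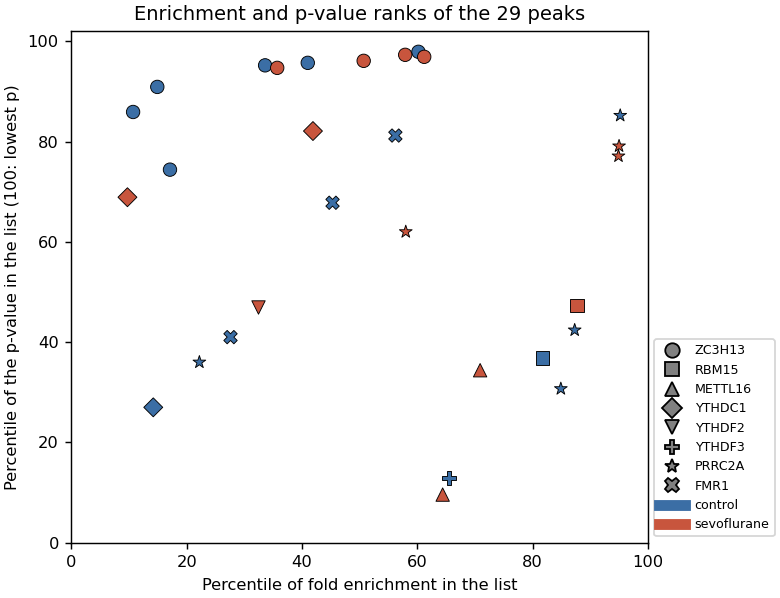
Each of the 29 peaks by the percentile of its fold enrichment (horizontal axis) and of its p-value (vertical axis, 100 for the lowest p) within its own list, with 1 symbol per gene and colour by group. ZC3H13 lies along the top between the 10.7th and 61.2nd percentile of enrichment, and RBM15 and METTL16 lie to the right and below.

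Other m6A genes came from a list of 28, of which 27 had an identifier in the supplied table of gene names and 8 had a peak in any animal. The list leaves out the members, which were chosen for having a peak, so its share is not that of all m6A genes. That share was not compared with the share over all searchable genes. The catalytic core METTL3 and METTL14, its partners WTAP, VIRMA, CBLL1 and RBM15B, and the erasers FTO and ALKBH5 had none. Nor did YTHDF1, YTHDC2, IGF2BP1, IGF2BP2, IGF2BP3, ELAVL1, FXR1, RBMX, LRPPRC, METTL5 or TRMT112. Absence from these lists does not show that a transcript was unmethylated or not expressed. HNRNPA2B1 and HNRNPC had a peak in all 11 animals, and EIF3A, a translation initiation subunit, in 5 controls and 4 sevoflurane animals. PCIF1, the cap methyltransferase, and SND1 each had 1 in S2, and PRRC2B had 1 in C3. Of these 8 genes, the 3 tested by treatment were EIF3A, FXR2 and PRRC2C, and each had Fisher's exact p = 1 (adjusted p = 1 over all genes).

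Among the relatives, FXR2 and PRRC2C each had more than 1 region. FXR2, a paralogue of FMR1, had a peak in B, C and C3, the 3 animals with an FMR1 peak, and also in S2 and S3. Its 5 peaks lay in 3 regions, the commonest of them in C, C3 and S2, where the annotation column names another gene than the caller's. PRRC2C had 8 peaks in 6 animals, 3 of them controls, and 4 of the 6 also had a PRRC2A peak. Its 2 regions lay in 3 and 5 animals. At the commoner region the peak of C3 had a p-value of 2e-45 but a fold enrichment of 2.82, against 21.1 for PRRC2A in the same list.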

How the data were processed

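Per the labels' protocols, m6A was immunoprecipitated from about 20 µg of fragmented total RNA. HISAT2 2.1.0, StringTie, cutadapt, Trim Galore 0.5.0 and the build rheMac8 are listed, without roles, per the submitters' processing notes; the peak caller is not given in the sources used here. Per the file headers, each peak has the authors' own p-value, log10 p and log10 false discovery rate (negative scores), fold enrichment (a ratio) and blocks. The 11 input samples were not analysed here.

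Members were matched by Ensembl identifier without version. Printed starts had 1 added, since the deposited starts count from 0. Percentiles rank peaks within a list. Presence was tested in Python 3.11.15 (scipy 1.17.1) with two-sided Fisher's exact tests over genes or regions in 2 to 9 animals, Benjamini-Hochberg adjusted, and lengths with exact permutation tests. Scripts were tested on simulated lists. Named genes were the members, listed m6A genes with a peak, and, for members in 3 or more animals, the 3 genes most alike by Jaccard index. Members and lists were chosen with earlier results of these data known. Fisher's exact and permutation p-values take animals as the unit. The authors' p-value of a peak belongs to the list of 1 animal and does not measure the spread between animals. Alternatives were a peak p of at most 1e-05, fold enrichment of at least 3, equal list length, the annotation column's gene, no filter, strata, 50% reciprocal overlap and leaving out each animal. The block by animal number was added after seeing the data.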

Additional observations from a re-analysis of the deposited data

Results flagged for a closer look

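The PRRC2A peak of control C1 stood at percentile 22.2 of enrichment in its list, far below those of A, B and C3, the other 3 controls with the peak. The gap to the next animal was 0.859 of the whole range of the 4 controls. Its fold enrichment was 3.40, and its p-value ranked at percentile 36.0. In all, 19 sets of 4 to 6 values were examined in this way and 1 stood out, and about 1 in 20 such sets does so by chance.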

How the results depend on the processing

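No member was called under any of the alternatives run. Members in 2 or 3 animals could not be called in the full data, and in males alone no gene could be. Of the members tested, only PRRC2A was in more animals, so the lack of calls does not show stability. FMR1 was lower after sevoflurane in all of the alternatives. No sevoflurane list held an FMR1 peak, so dropping peaks or animals, or using strata, could not reverse that sign. The unchanged sign therefore does not show stability either. The FMR1 difference in share ran from -60 to -40 percentage points when each animal was left out in turn. Exact p for FMR1 ran from 0.167 to 0.444 there, 0.214 with sex as a stratum and 0.200 with naming style. Cutting the lists to 1 length turned the difference to -16.7 percentage points for RBM15 and 10 for PRRC2A, and in females alone to -25.0 and 16.7, while in males alone it was 50 and -50. Leaving out single animals gave -16.7 (without D) to 20 for RBM15 and -20 to 8.33 (without F or S1) for PRRC2A. YTHDC1 differed by 3.33 with at least 3-fold enrichment and by 8.33 to 40 with an animal left out. In number of members per animal the difference was -0.0667, between -0.417 and 0.333 with an animal left out. The covered length of PRRC2A differed by -8.00 to 82.0 bp (without S2, the lowest) and that of ZC3H13 by 35.0 to 125 bp. With S1, which had no peak, counted as 0 bp, the ZC3H13 difference was -5.07 bp (exact permutation p = 0.991). For RBM15, PRRC2A and ZC3H13 these turns cross a difference that passed no test, and the cause was not tested. With 50% reciprocal overlap 3 members had a single region. Under the rule of 1 bp or more it was 6 members, and 4 to 6 with an animal left out, since fewer members then have 2 animals. Over all genes the 27 calls became 10 at the stricter p, 4 with equal length and 19 with the replicate block. They became 0 in males alone, where no split of the animals can reach p under 0.05. With an animal left out they became 32 to 85, the highest without S1. Next came leaving out S3 at 69, C3 at 59, F at 56, D at 55 and S2 at 46. Leaving out an animal also changes which splits can reach that p, so these counts do not compare directly with the 27. The causes of all these changes were not otherwise tested. In the replicate block (C1 with S1, C2 with S2, C3 with S3), FMR1 differed by -48.1 percentage points (exact p = 0.200), and 0 members were called, as without it. The labels do not say that the numbers pair animals, and C1 and S1 differ in sex. Depth is unknown in all lists.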
